A study of Mus musculus with 24 samples.

Results

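The genes described here were 7 mouse CXC chemokine ligand genes, Cxcl1, Cxcl2, Cxcl3, Cxcl9, Cxcl10, Cxcl14 and Cxcl16, chosen by symbol from the 54446 gene identifiers counted in each library. Their Ensembl identifiers were ENSMUSG00000029380.11, ENSMUSG00000058427.10, ENSMUSG00000029379.10, ENSMUSG00000029417.9, ENSMUSG00000034855.13, ENSMUSG00000021508.11 and ENSMUSG00000018920.11, in that order. The study sorted CD11b+ myeloid cells from MC38 tumours, a mouse colon carcinoma line grown under the skin of C57BL/6J mice. WT mice carried floxed Ythdf2 alleles without Cre, and cKO mice carried the same alleles with Cre expressed from the Lyz2 locus, which is active in monocytes, macrophages and neutrophils. Tumours received no radiation (Ctrl) or a single dose of 20 Gy (IR), 3 days before the cells were sorted. The mice were young adults, and a replicate pools several of them. For each of 4 combinations of genotype and treatment there were 3 Input libraries of polyadenylated RNA and 3 m6A IP libraries, made from the fragments that an N6-methyladenosine antibody had bound. Replicates are described in the methods as technical at one point and as biological at another. The p-values below therefore measure the spread between libraries, which may be technical. YTHDF2 binds m6A-marked transcripts and promotes their decay, and the comparisons address how the ligand transcripts differed with irradiation and with the Ythdf2 genotype label.

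CXC chemokines are small secreted proteins that attract leukocytes through G protein-coupled receptors. CXCL1, CXCL2 and CXCL3 carry the ELR motif and act on CXCR2 to draw neutrophils and other myeloid cells, and their genes are induced by NF-kB. CXCL9 and CXCL10 are interferon-induced and act on CXCR3 to draw activated T cells and NK cells. CXCL14 is a homeostatic member whose receptor is not settled, and CXCL16 is made as a transmembrane protein that is shed by ADAM10 and binds CXCR6. Transcripts of the neutrophil-attracting ligands are short-lived, and AUUUA letters in their 3′ UTRs are bound by decay factors such as tristetraprolin (Zfp36).

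Cxcl3 (chr5:90786103-90789600), Cxcl1 (chr5:90891241-90893115) and Cxcl2 (chr5:90903871-90905938) lay on the forward strand of chromosome 5 in GRCm38. Cxcl9 (chr5:92321347-92328079) and Cxcl10 (chr5:92346638-92348889) lay on the reverse strand of the same chromosome. Cxcl14 (chr13:56288643-56296551) and Cxcl16 (chr11:70453983-70459984) stood alone on the reverse strands of chromosomes 13 and 11. The principal transcript had 4 exons in all but Cxcl16, which had 5, and its length ran from 953 bases (Cxcl1) to 2889 bases (Cxcl9).

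RefSeq promoter windows of GRCm38.p6, from 250 bases before to 50 bases after the transcript start, were at hand for 6 of the 7 genes, all but Cxcl16. They were searched on both strands for GGNNTTTCC (the core of NF-kB sites), GAAANNGAA (the core of interferon response elements) and TTCNNNGAA (the core of STAT sites). The first motif was matched in 5 of the 6 windows, those of Cxcl1, Cxcl2, Cxcl3, Cxcl9 and Cxcl10, against 5.82% of all 32851 promoter windows. The second was matched in Cxcl9, Cxcl10 and Cxcl14, against 8.56% of all windows, and the third in Cxcl14 alone, against 8.30%. All 12 matched stretches are shown to compare the neutrophil-attracting with the interferon-induced ligands, with the matching letters in capitals and the gene's strand read 5′ to 3′:
Cxcl1, 70 bases before the start: gtactccgGGAATTTCCctggcccg
Cxcl1, 89 bases before the start: ggttgcagGGAAACACCctgtactc
Cxcl2, 96 bases before the start: gagctcagGGAATTTCCctggtccc
Cxcl2, 77 bases before the start: ggtccccgGGCTTTTCCagacatcg
Cxcl3, 72 bases before the start: ctgcggggGGAATTTCCccagcccg
Cxcl9, 42 bases before the start: aaggaaaaGGGATTTCCtaaataaa
Cxcl9, 130 bases before the start: tgagagtaGGGTTTTCCccaggacg
Cxcl9, 175 bases before the start: gtttatgtGAAATGGAAgtagaaca
Cxcl10, 158 bases before the start: ggggagagGGAAATTCCaagttcat
Cxcl10, 213 bases before the start: acgctttgGAAAGTGAAacttacct
Cxcl14, 172 bases before the start: gtccacagGAAACAGAAaagcagca
Cxcl14, 191 bases before the start: cctgtgtgTTCTGAGAAgtgtccac
Cxcl1 (70 bases), Cxcl2 (96 bases) and Cxcl3 each held 1 match with the same 9 letters. In Cxcl10 and at 89 bases in Cxcl1 the first motif was read on the opposite strand. On that strand the Cxcl10 match had those same 9 letters as well. Cxcl1, Cxcl2 and Cxcl9 held a second match to the first motif. The first motif occurred in windows of both classes of ligand, and the second in those of Cxcl9 and Cxcl10 and also of Cxcl14. A match is a description of the letters, and no binding was measured in these libraries.

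**Figure D1:**
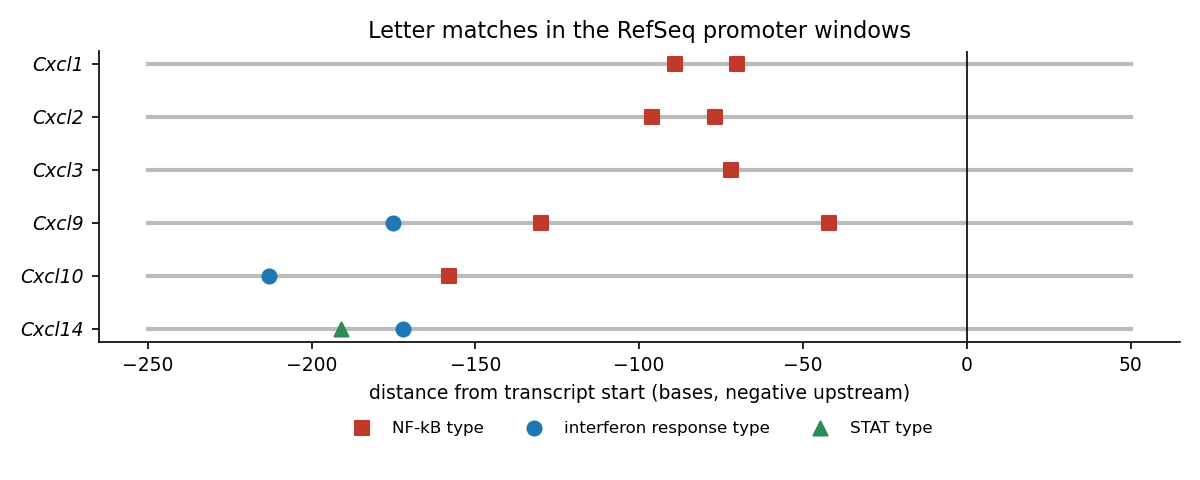
Position of motif matches in the RefSeq promoter windows of 6 CXC ligand genes, with the distance from the transcript start in bases on the x axis and each gene on its own line. Squares are matches to the NF-kB core, circles to the interferon response core and the triangle to the STAT core; Cxcl1, Cxcl2 and Cxcl3 held only squares, within 100 bases of the start.

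The 3′ UTRs set Cxcl1, Cxcl2 and Cxcl3 apart. ATTTA occurred 11 times in the 734 bases of Cxcl2, 7 times in the 592 bases of Cxcl1 and 5 times in the 645 bases of Cxcl3, against a median of 1 over 12659 protein-coding genes. The 3′ UTR of Cxcl9 held 3, those of Cxcl10 and Cxcl16 held 2 each and that of Cxcl14 held 0. The densest 30-base stretch of each neutrophil-attracting ligand on the forward strand is shown for comparison, with ATTTA in capitals:
Cxcl1, chr5:90892606-90892635: gtcctATTTATTTAtgtATTTATTTAttcc
Cxcl2, chr5:90905327-90905356: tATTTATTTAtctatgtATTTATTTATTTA
Cxcl3, chr5:90787636-90787665: gcatcttATTTAatgtttATTTAatatcaa
GGACT, a common form of the m6A consensus, occurred 4 times in the principal transcripts of Cxcl9 and Cxcl16, 2 times in Cxcl1, 1 time in Cxcl10 and Cxcl14 and 0 times in Cxcl2 and Cxcl3. The median over the 12659 genes was 3, in principal transcripts with a median length of 2992 bases, or 1.06 per kb. For their length, Cxcl1 (2 in 953 bases), Cxcl16 (4 in 2699) and Cxcl9 (4 in 2889) were above this median per kb. Cxcl2, Cxcl3, Cxcl10 and Cxcl14 were below it.

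Input libraries held between 65180075 and 83661576 gene counts, and IP libraries between 68846321 and 86421888. The deleted gene was checked first. Among the WT Inputs Ythdf2 was at 96.8 CPM ± 1.23 (Ctrl) and 105 ± 1.51 (IR), and among the cKO-labelled Inputs at 178 ± 6.05 (Ctrl) and 223 ± 7.25 (IR; SD, n = 3), so it was higher, not lower, where it was to be deleted. These counts cover the whole gene, and the exons removed by Cre are not given in the sources used here. Lyz2, whose locus carries Cre, was at 20586 CPM ± 294 in WT Ctrl and 300 ± 3.95 in cKO Ctrl Inputs (SD, n = 3). In IP after irradiation the labels did not match: Lyz2 was at 89.6 CPM ± 1.30 in those labelled WT and at 19700 ± 159 in those labelled cKO (SD, n = 3). Results that rest on the IR IP libraries therefore carry their labels in the text, with IP and Input paired by label, and the Ctrl libraries are also given alone.

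CPM is a gene's count divided by the library's TMM-scaled total and multiplied by 1e6. Per kilobase of the principal transcript, the ligands spanned a wide range of Input levels. In WT Ctrl Inputs, Cxcl3 was highest at 198 CPM per kb ± 6.37, followed by Cxcl16 at 182 ± 1.89, Cxcl2 at 97.5 ± 1.76 and Cxcl1 at 21.2 ± 1.32 (SD, n = 3). Cxcl14 at 3.38 ± 0.203, Cxcl10 at 2.099 ± 0.134 and Cxcl9 at 0.0389 ± 0.0103 came last on the same scale. The libraries of neighbours in this order did not overlap. In the cKO-labelled Inputs the places of Cxcl10 and Cxcl14 were exchanged, with Cxcl10 at 3.34 to 4.21 CPM per kb in cKO Ctrl and Cxcl14 at 1.85 to 2.27. Of these 7 genes, the CD11b+ cells held mainly transcripts of Cxcl3, Cxcl16, Cxcl2 and Cxcl1, and few of the CXCR3 ligands.

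**Figure D2:**
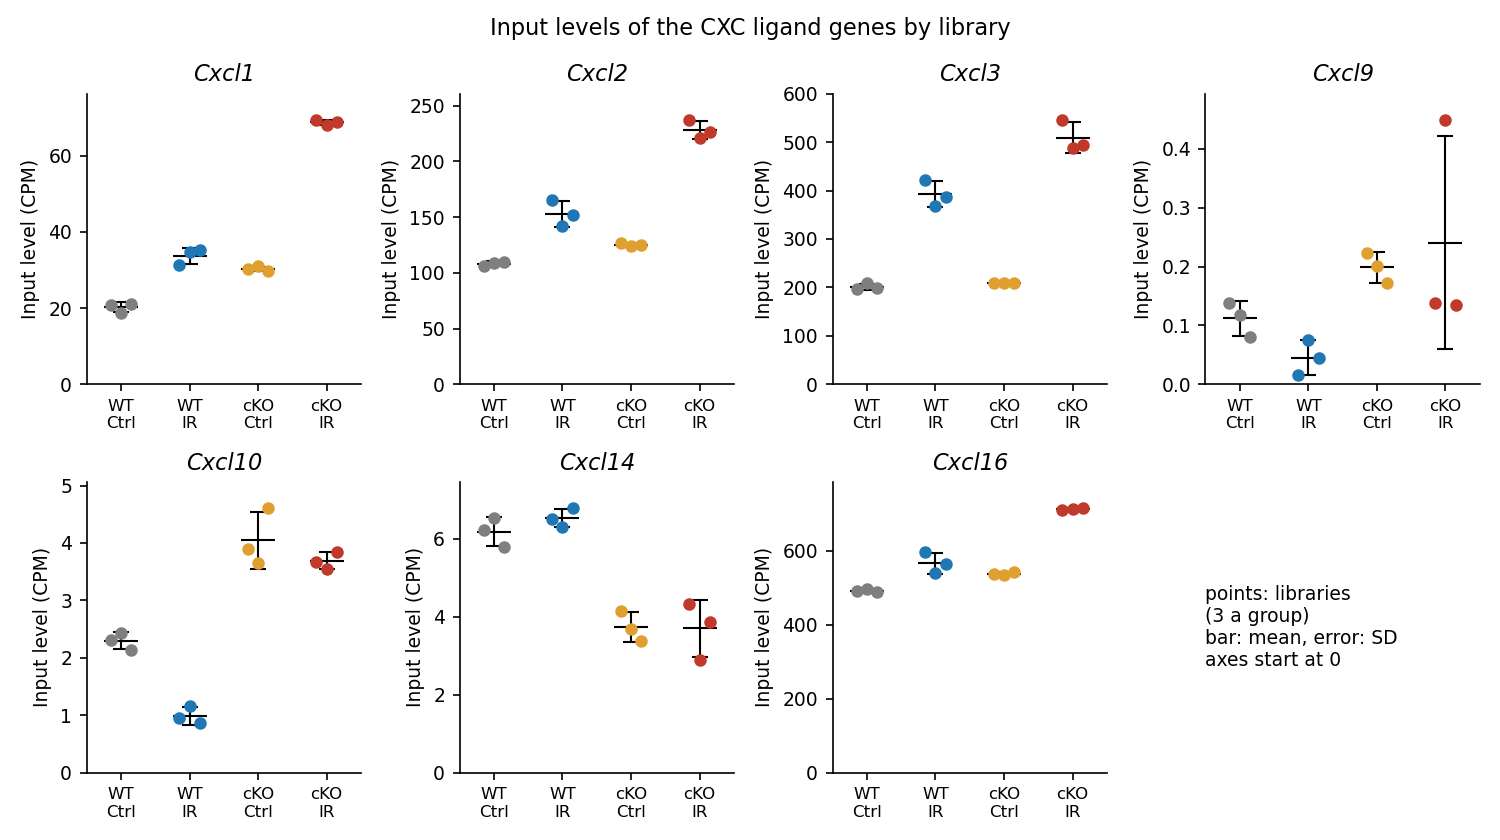
Input level of each CXC ligand gene in CPM (y axis, starting at 0) in the 4 groups labelled by genotype and treatment on the x axis, with 1 point per library, the mean as a bar and the SD as the error (n = 3). Cxcl1, Cxcl2, Cxcl3 and Cxcl16 are highest in the cKO IR group, Cxcl10 is lowest in WT IR, and Cxcl14 is lower in both cKO groups.

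Irradiation in WT raised the transcripts of all 3 neutrophil-attracting ligands and of Cxcl16, and lowered that of Cxcl10. Of the 7 genes, all of which passed the count filter, 4 rose and 1 fell, and the median log2 change was 0.20 against 0.01 over all genes tested. Of the 16090 genes tested in the Inputs, 14.7% rose and 17.0% fell in this comparison (edgeR quasi-likelihood test, adjusted p under 0.05). The ligands that rose were the 4 most abundant of the 7. Groups without overlap are named below, but the share of all genes without overlap was counted only for cKO IR above WT IR.

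Cxcl1, a ligand of CXCR2, was at 20.8, 18.8 and 21.0 CPM in the 3 WT Ctrl Inputs and at 31.4, 34.7 and 35.2 CPM in the 3 WT IR Inputs. The groups did not overlap, and the change was 1.67-fold (log2 0.74, SE 0.05, edgeR adjusted p = 1.49e-09). Cxcl2, which shares the receptor, was at 106, 109 and 110 CPM in WT Ctrl and at 165, 142 and 151 CPM in WT IR. Every irradiated library was above every control, by 1.41-fold (log2 0.50, SE 0.05, adjusted p = 3.24e-08). Cxcl3, the third ligand of this cluster, was at 196, 208 and 200 CPM in WT Ctrl and at 421, 368 and 388 CPM in WT IR. Its 1.95-fold rise (log2 0.96, SE 0.05, adjusted p = 2.60e-12) was the largest of the 7 genes.

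Cxcl10, the interferon-induced CXCR3 ligand, was at 2.32, 2.43 and 2.14 CPM in WT Ctrl and at 0.950, 1.16 and 0.864 CPM in WT IR. All 3 irradiated libraries were lower, 2.32-fold on average (log2 change -1.21, SE 0.15, adjusted p = 3.26e-06). Cxcl9, its neighbour on chromosome 5, had only 10, 9 and 6 counts in the WT Ctrl Inputs and 1, 5 and 3 counts in the WT IR Inputs. The libraries did not overlap, but the change did not pass the test (log2 change -1.28, SE 0.73, adjusted p = 0.204). By summed counts the ratio of WT Ctrl to WT IR was 2.48 with an exact 95% interval of 1.12 to 6.03, which covers counting error only.

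Cxcl16, the shed CXCR6 ligand, was at 490, 497 and 488 CPM in WT Ctrl and at 595, 539 and 563 CPM in WT IR. The groups did not overlap, although the change was small, at 1.15-fold (log2 0.20, SE 0.03, adjusted p = 4.91e-05). Cxcl14 was at 6.22, 6.53 and 5.79 CPM in WT Ctrl and at 6.51, 6.30 and 6.78 CPM in WT IR, which overlapped (log2 change 0.08, SE 0.12, adjusted p = 0.676).

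In the cKO-labelled Inputs, irradiation raised the same 4 ligand genes, and none of the 7 fell. Over all genes tested, 21.8% rose and 23.8% fell in this comparison. The median log2 change of the 7 genes was 0.40, against 0.01 over all genes tested.

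Cxcl1 went from 30.1, 30.9 and 29.7 CPM in cKO Ctrl to 69.3, 68.1 and 68.7 CPM in cKO IR. With no overlap, this was a 2.27-fold rise (log2 1.18, SE 0.05, edgeR adjusted p = 8.73e-13). Cxcl2 went from 126, 124 and 125 CPM to 237, 221 and 226 CPM, again without overlap (1.82-fold, log2 0.87, SE 0.04, adjusted p = 6.53e-12). Cxcl3 went from 209, 209 and 210 CPM to 546, 487 and 493 CPM, the largest rise of the 7 genes at 2.43-fold (log2 1.28, SE 0.05, adjusted p = 5.27e-14).

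Cxcl16 rose from 538, 533 and 542 CPM to 709, 712 and 714 CPM, and its 2 groups were far apart relative to their spread (1.32-fold, log2 0.40, SE 0.03, adjusted p = 2.58e-09). Cxcl10 was at 3.89, 3.65 and 4.60 CPM in cKO Ctrl and at 3.68, 3.55 and 3.85 CPM in cKO IR. These values overlapped, and the change did not pass the test (log2 -0.13, SE 0.13, adjusted p = 0.445). Cxcl14 was at 4.14, 3.68 and 3.38 CPM in cKO Ctrl and 4.34, 2.89 and 3.88 CPM in cKO IR, also overlapping (adjusted p = 0.958). Cxcl9 had 16, 17 and 13 counts in cKO Ctrl and 10, 32 and 9 counts in cKO IR, a ratio of cKO IR to cKO Ctrl of 1.22 by summed counts (exact 95% interval 0.804 to 1.86).

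Without irradiation, the cKO-labelled Inputs held more Cxcl1, Cxcl2, Cxcl10 and Cxcl16 and less Cxcl14 than WT. Over all genes tested, 8.05% were higher and 7.61% lower in this comparison, against 4 higher and 1 lower of the 7. Cxcl10 and Cxcl1 differed most among the genes that were higher, with cKO Ctrl above WT Ctrl by 1.76-fold (log2 0.82, SE 0.13, edgeR adjusted p = 1.95e-04) and 1.497-fold (log2 0.58, SE 0.05, adjusted p = 1.70e-07). For both, every cKO Ctrl library was above every WT Ctrl library. The share of all genes tested without such overlap was not counted in this comparison. Cxcl2 was higher by 1.16-fold (log2 0.21, SE 0.05, adjusted p = 0.00251) and Cxcl16 by 1.09-fold (log2 0.13, SE 0.03, adjusted p = 0.00834), also without overlap. Cxcl14 was lower by 1.66-fold in all 3 cKO Ctrl libraries (log2 change -0.73, SE 0.12, adjusted p = 2.65e-04). Cxcl3 differed little (log2 change 0.06, SE 0.05, adjusted p = 0.494), although its 3 cKO Ctrl libraries ran from 209 to 210 CPM and the highest WT Ctrl library was at 208 CPM. Cxcl9 had 46 summed counts against 25, a ratio of 1.77 (exact 95% interval 1.07 to 3.01), and did not pass the test (adjusted p = 0.438).

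After irradiation all 7 genes differed between the genotypes, 6 higher and only Cxcl14 lower in the cKO-labelled Inputs. The background was 23.9% higher and 23.8% lower over all genes tested. Cxcl10 was 3.72-fold higher (log2 1.896, SE 0.15, edgeR adjusted p = 2.48e-09), Cxcl1 2.03-fold (log2 1.02, SE 0.05, adjusted p = 5.43e-12) and Cxcl2 1.49-fold (log2 0.58, SE 0.04, adjusted p = 1.71e-09). Cxcl3 was higher by 1.30-fold (log2 0.37, SE 0.05, adjusted p = 9.97e-07) and Cxcl16 by 1.26-fold (log2 0.33, SE 0.03, adjusted p = 4.10e-08). Cxcl14 was 1.76-fold lower (log2 change -0.82, SE 0.13, adjusted p = 1.63e-05). For Cxcl1, Cxcl2, Cxcl3, Cxcl10 and Cxcl16 all 3 cKO IR libraries lay above all 3 WT IR libraries, as they did for 26.0% of all genes tested, and for Cxcl14 they lay below.

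Cxcl9 had 1, 5 and 3 counts in WT IR and 10, 32 and 9 in cKO IR, again without overlap. It passed the test (log2 change 2.37, SE 0.69, adjusted p = 0.0076), on 51 against 9 summed counts. The ratio of the sums was 5.36 (exact 95% interval 2.61 to 12.4). The call rested on cKO IR replicate 2, which alone held 32 counts, and without it the log2 change was 1.56 (adjusted p = 0.089).

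**Figure D3:**
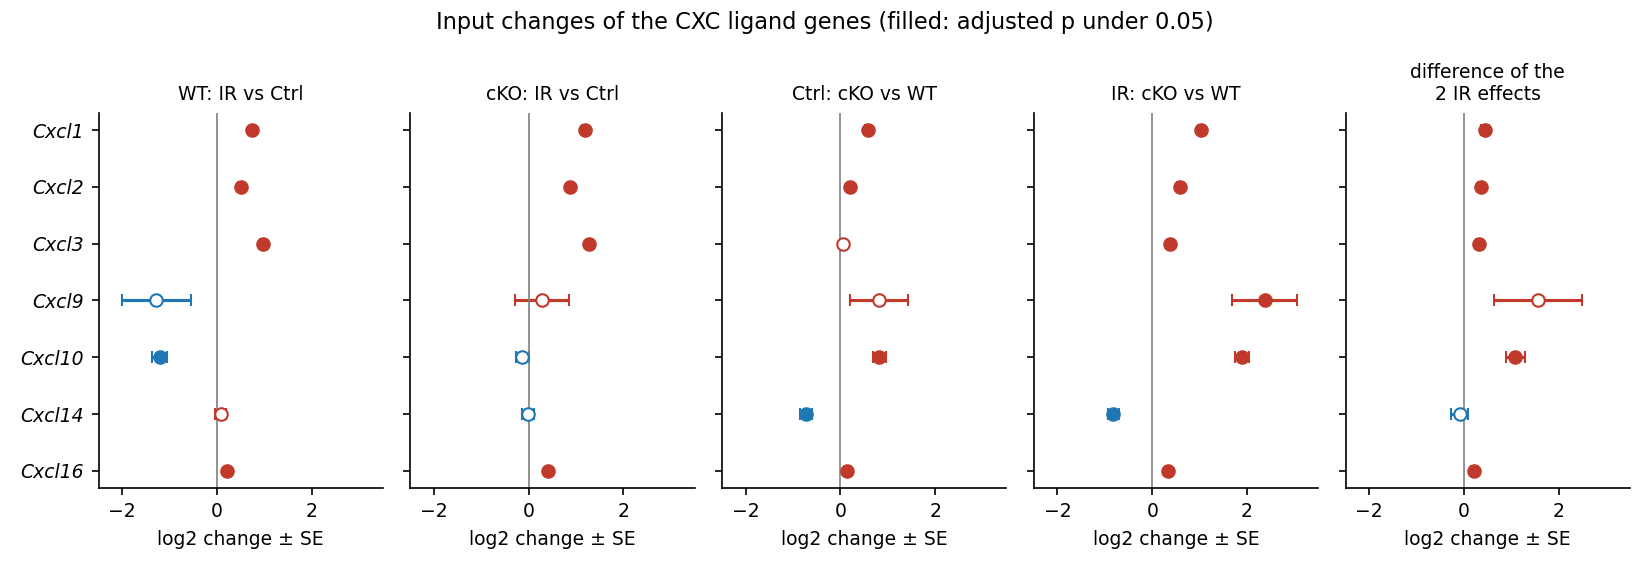
Log2 change with its SE (x axis) of each CXC ligand gene (y axis) in the 5 Input comparisons, from 1 edgeR fit of the 12 Inputs, with filled points where the adjusted p was under 0.05. Points to the right are higher in IR or in cKO; in the 5th panel they mark a signed difference (cKO minus WT) above 0, from a larger rise in cKO for Cxcl1, Cxcl2, Cxcl3 and Cxcl16 and, for Cxcl10, from a fall in WT that was not called in cKO.

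The irradiation effect itself was then compared between the genotypes, as the log2 change in cKO minus that in WT. This signed difference was above 0 and passed the test for 5 of the 7 genes and was below 0 with a call for none, while over all genes tested it passed above 0 for 15.0% and below 0 for 15.2%. For Cxcl1, Cxcl2, Cxcl3 and Cxcl16 it marks a larger rise in cKO. For Cxcl1 the difference was 0.44 (SE 0.08, edgeR adjusted p = 1.44e-04), for Cxcl2 0.37 (SE 0.06, adjusted p = 1.56e-04) and for Cxcl3 0.32 (SE 0.07, adjusted p = 7.98e-04). For Cxcl16 it was 0.20 (SE 0.05, adjusted p = 0.00171). Cxcl10 stood apart with a difference of 1.08 (SE 0.20, adjusted p = 3.54e-04), with a log2 change of -1.21 in WT and of -0.13, not called, in cKO. Cxcl14 (-0.09, SE 0.18, adjusted p = 0.759) and Cxcl9 (1.56, SE 0.93, adjusted p = 0.232) did not pass. The 5 Input comparisons share groups and are not independent of each other.

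In bulk libraries, fewer cells of a type and less RNA per cell cannot be told apart. The cells expressed myeloid genes such as Csf1r and Itgam (CD11b) throughout, and the 6 myeloid markers summed to between 3904 and 5054 CPM. The summed Input level of the 6 neutrophil markers was 1895 to 1993 CPM in WT Ctrl, 636 to 679 in WT IR, 915 to 939 in cKO Ctrl and 546 to 552 in cKO IR. All 6 fell with irradiation in WT and 5 of 6 in cKO, while 5 of 6 were lower and 1 higher in cKO Ctrl than in WT Ctrl. In cKO IR 5 of these 6 were lower and 0 higher than in WT IR (median log2 difference -0.34). The 5 monocyte markers summed to 828 to 887, 325 to 389.5, 698 to 737 and 432 to 442 CPM in the same order. Of these 5, 4 fell and 1 rose with irradiation in WT, and 4 fell and 0 rose in cKO. In cKO Ctrl 2 were higher and 2 lower than in WT Ctrl (median log2 difference 0.001). In cKO IR 4 were higher and 1 lower than in WT IR (median 0.29). The 6 macrophage markers summed to between 3621 and 4146 CPM over all 12 Inputs. With irradiation, 4 of these 6 fell in WT, and 5 fell and 1 rose in cKO. Between the genotypes 5 of the 6 macrophage markers were higher and 1 lower in cKO Ctrl than in WT Ctrl (median log2 difference 0.36), and 4 were higher and 1 lower in cKO IR than in WT IR (median 0.42). The 5 dendritic cell markers summed to 767 to 819 CPM in WT Ctrl, 978 to 1158 in WT IR, 792 to 826 in cKO Ctrl and 944 to 957 in cKO IR, mostly from Fscn1. Of the 3 that passed the filter, 2 rose with irradiation in WT and 1 in cKO, 1 was lower in cKO Ctrl than in WT Ctrl and 2 were lower in cKO IR than in WT IR. The part of these shifts in the ligand changes was not tested. For each comparison, the shares of all genes tested that were called are those given above. Markers of T, NK and B cells, fibroblasts, endothelium, platelets and carcinoma cells summed to at most 1.46, 1.28, 1.15, 3.35, 1.83, 2.31 and 1.26 CPM, and Krt19 and Gp1bb were at 0 in all 12 Inputs.

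Among the other 8 CXC ligand genes, 4 passed the count filter. Cxcl5, Ppbp and Pf4 rose with irradiation in both genotypes, and the homeostatic ligand gene Cxcl12, with at most 21 counts per Input, did not pass the test in any Input comparison. Cxcl5, another ELR ligand of CXCR2, went from 34.1 CPM ± 3.03 to 67.2 ± 9.39 in WT and from 29.3 ± 0.561 to 78.0 ± 0.193 in cKO (SD, n = 3). Its log2 change with irradiation was 0.98 (SE 0.08, edgeR adjusted p = 3.13e-09) in WT and 1.41 (SE 0.08, adjusted p = 1.09e-11) in cKO, and the difference passed the test (0.44, SE 0.11, adjusted p = 0.00343). Pf4, the gene of platelet factor 4, rose from 176 CPM ± 3.61 to 244 ± 11.3 in WT and from 173 ± 3.79 to 320 ± 5.22 in cKO (SD, n = 3), again with a larger change in cKO (difference 0.41, SE 0.05, adjusted p = 3.40e-06). Ppbp, which encodes the precursor of CXCL7, rose by log2 0.89 (SE 0.06) in WT and 0.71 (SE 0.06) in cKO (adjusted p = 6.06e-10 and 8.76e-09), and this difference did not pass (adjusted p = 0.144). Between the irradiated genotypes, Cxcl5 and Pf4 were higher and Ppbp lower in cKO, and none of the 4 passed the test between the genotypes without irradiation. Cxcl11, Cxcl13, Cxcl15 and Cxcl17 did not reach the filter.

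Of the 8 receptor genes, 5 passed the filter. Cxcr2, the receptor of the ELR ligands and a neutrophil gene, moved opposite to its ligands. It went from 18.3 CPM ± 1.16 to 5.61 ± 0.355 with irradiation in WT and from 7.26 ± 0.172 to 3.63 ± 0.0757 in cKO (SD, n = 3). The log2 change with irradiation was -1.71 (SE 0.08, edgeR adjusted p = 1.08e-12) in WT and -0.998 (SE 0.08, adjusted p = 5.91e-09) in cKO, a difference of 0.71 (SE 0.11, adjusted p = 7.70e-05). Cxcr4, the CXCL12 receptor, rose by log2 0.16 (SE 0.06, adjusted p = 0.045) in WT and 0.56 (SE 0.06, adjusted p = 1.84e-07) in cKO, with a difference of 0.40 (SE 0.09, adjusted p = 0.00125). Cxcr3, the receptor of CXCL9 and CXCL10, had 5 to 60 counts per Input and Cxcr5 42 to 85, and neither passed the test in an Input comparison, nor did Ackr1. Cxcr6, the CXCL16 receptor, had at most 3 counts in any Input and, like Cxcr1 and Ackr3, did not reach the filter.

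Of 12 genes that NF-kB induces, 6 rose and 1 fell with irradiation in WT, 7 rose and 2 fell in cKO, and 9 were higher and 0 lower in cKO Ctrl than in WT Ctrl. The median log2 changes were 0.09, 0.22 and 0.23, against values within 0.02 of 0 over all genes. The shares of all genes tested that rose and fell were 14.7% and 17.0% in WT and 21.8% and 23.8% in cKO. Higher and lower shares were 8.05% and 7.61% for cKO Ctrl against WT Ctrl, and 23.9% and 23.8% for cKO IR against WT IR. The signed difference of the irradiation effects was called above 0 for 15.0% and below 0 for 15.2%. In WT the cytokine genes Il1a (log2 0.68, SE 0.06) and Il6 (0.54, SE 0.11) rose most, and in cKO Il6 (1.02, SE 0.10) and Il1a (0.57, SE 0.05). Il6 (0.74, SE 0.10) and Il1b (0.74, SE 0.04) stood highest in cKO Ctrl over WT Ctrl, and again in cKO IR over WT IR (1.22, SE 0.10, and 1.08, SE 0.04), where 9 of the 12 were higher and 1 lower. In contrast to the neutrophil-attracting ligands, the 12 genes were split in the comparison of the irradiation effects, with a signed difference (cKO minus WT) above 0 for 4 (most for Il6, 0.47, SE 0.14, and Il1b, 0.34, SE 0.05), below 0 for 3 and 5 not called.

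Of 8 genes of the interferon gamma route, 7 passed the filter. Ifng itself did not. Shares over all genes tested were those given with the NF-kB-induced genes. With irradiation, 3 rose and 2 fell in WT, led by Socs1 (log2 0.58, SE 0.09) and Jak2 (0.55, SE 0.04), and 3 rose and 3 fell in cKO, led by Socs1 (0.74, SE 0.09) and Ifngr1 (-0.27, SE 0.04). Ifngr1, a chain of the receptor, was higher in cKO Ctrl than in WT Ctrl (0.24, SE 0.04) and in cKO IR than in WT IR (0.31, SE 0.04). The signed difference of the irradiation effect (cKO minus WT) was below 0 for Jak2 (-0.31, SE 0.05) and Jak1 (-0.21, SE 0.04) and was called above 0 for none of the 7. Jak2 rose less in cKO (0.24, SE 0.04) than in WT, and Jak1 was not called in WT (0.02, SE 0.03) and fell in cKO (-0.19, SE 0.03).

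Among 7 genes of proteins that bind 3′ UTRs, most of them at AU-rich stretches, 3 rose and 3 fell with irradiation in WT. In cKO 0 rose and 5 fell. The shares of all genes tested that rose and fell were 14.7% and 17.0% in WT and 21.8% and 23.8% in cKO. Zfp36l1 (log2 0.35, SE 0.05) and Zfp36l2 (-0.35, SE 0.03) moved most in WT, and Zfp36l2 (-0.70, SE 0.03) and Khsrp (-0.46, SE 0.04) in cKO. The signed difference of the irradiation effect (cKO minus WT) was below 0 for 6 of the 7, against 15.2% of all genes tested. It was lowest for Zfp36l1 (-0.46, SE 0.07) and Zfp36 (-0.42, SE 0.06). Zfp36l2 and Khsrp fell more in cKO than in WT, whereas Zfp36 rose in WT (0.16, SE 0.05) and fell in cKO (-0.26, SE 0.05), and Zfp36l1 rose in WT and was not called in cKO (-0.11, SE 0.05). The median difference of the 7 genes was -0.31, against 0.37 for the 7 ligands. Zfp36l1 alone differed without irradiation (0.18, SE 0.05, higher in cKO Ctrl), and in cKO IR 5 of the 7 were lower than in WT IR, with Zfp36 (-0.39, SE 0.05) and Zfp36l2 (-0.36, SE 0.03) first. Of the 4 genes of enzymes that process CXC ligands, Mmp9 fell and Dpp4 rose with irradiation in WT (-0.997, SE 0.04, and 0.37, SE 0.06) and in cKO (-0.24, SE 0.04, and 0.28, SE 0.06). Adam17 (-0.19, SE 0.04) and Adam10 (-0.12, SE 0.04) also fell in cKO and were not called in WT. Mmp9 (-0.22, SE 0.04) and Adam10, the sheddase of CXCL16 (-0.21, SE 0.04), were lower in cKO Ctrl than in WT Ctrl, and after irradiation Mmp9 was higher (0.54, SE 0.04) and Adam10 lower (-0.36, SE 0.04).

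The ligands also differed in which genes followed their Input levels, by Pearson's r of log2(CPM + 0.1) over the 12 Inputs, a description in which the points share 4 groups of 3 libraries. Cxcl2 and Cxcl16 were closest to each other (r = 0.989), then Cxcl1 and Cxcl16 (r = 0.971) and Cxcl1 and Cxcl2 (r = 0.967). Cxcl3 followed Cxcl2 at 0.941, and Cxcl9 followed Cxcl10 at 0.794, while Cxcl14 ran opposite to Cxcl9 (r = -0.834) and Cxcl10 (r = -0.824). Among genes outside the family, Fam102b, AW112010 and Iscu were most like Cxcl1 (r from 0.986 to 0.988), and H2-T22, Bcl2a1a and AW112010 most like Cxcl2 (0.990 to 0.994). Phlda3, Pkib and Cytip were most like Cxcl3 (0.994 to 0.995), and Bcl2a1d, Nudt17 and Bcl2a1a most like Cxcl16 (0.991 to 0.994). For Cxcl10 they were Nr1h3, Clec12a and Siglece (0.977 to 0.989), for Cxcl14 Gm45191, Gm49705 and Lrp8 (0.954 to 0.966), and for Cxcl9, which had few counts, Mtg2, Prpf18 and Pdhx (0.894 to 0.963).

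In the m6A IP libraries, the ligand transcripts were depleted relative to Input, and no called peak touched any of them. The authors' peak lists held 189264 peaks over all IP libraries, and 0 overlapped a member on either strand. By comparison, 5638 of 16084 genes tested (35.1%) carried a peak found in all 3 replicates of at least 1 group. The nearest peak on the same strand was 17289 bp from Cxcl9 and at least 42580 bp from each of the others, up to 1173485 bp from Cxcl3. The other 8 CXC ligand genes had 0 consensus peaks as well. Of the receptors, Cxcr2 alone had some, 3 under the label WT IR and 2 under the label cKO IR. Of the other lists, Socs1 and Hnrnpd had consensus peaks in all 4 groups.

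The ratio of IP to Input reads, from 1 edgeR fit of the 24 libraries, was below 1 for each ligand in each group. Of the 7 genes, 6 were lower in IP in WT Ctrl, 7 in cKO Ctrl, and 6 under each of the IR labels. The shares of all 17373 genes tested that were lower in IP were 37.5%, 36.0%, 36.5% and 36.9%. The median log2 IP over Input of the 7 genes was -1.92, -3.17, -2.44 and -2.93 in these groups, whereas the median over all genes tested was within 0.02 of 0. Transcripts of up to 1200 bases, like those of Cxcl1, Cxcl2, Cxcl3 and Cxcl10, had medians of 0.29, 0.26, 0.11 and -0.18 over 1195 protein-coding genes.

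Cxcl1 was depleted most. It had 61, 54 and 61 IP counts in WT Ctrl, 45, 58 and 39 in cKO Ctrl and 32, 67 and 60 in the group labelled WT IR, and IP counts of 88, 123 and 129 in the group labelled cKO IR. Its 12 Inputs held from 1435 to 5037 counts, so every IP library was far below every Input. Its log2 IP over Input was -4.85 (SE 0.13) in WT Ctrl, -5.78 (SE 0.13) in cKO Ctrl, -5.74 (SE 0.13) under the label WT IR and -5.79 (SE 0.11) under the label cKO IR. Of all genes tested, 2.09%, 0.449%, 0.731% and 0.535% had a ratio as low.

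Cxcl2 in IP stayed between 29.3 and 33.0 CPM in all 12 libraries, while its Input level ran from 106 to 237 CPM, so that its log2 ratio ran from -1.92 (SE 0.05) in WT Ctrl to -2.93 (SE 0.05) in the group labelled cKO IR. Cxcl3 was depleted least of the 3 neutrophil-attracting ligands, at -0.78 (SE 0.04) in WT Ctrl, -1.62 (SE 0.04) in cKO Ctrl, -1.82 (SE 0.04) under the label WT IR and -1.16 (SE 0.04) under the label cKO IR. Cxcl16 was at -2.32 (SE 0.03), -3.17 (SE 0.03), -3.12 (SE 0.03) and -2.95 (SE 0.03) in the same order. All these ratios passed the test (edgeR adjusted p of 1.84e-17 or lower for Cxcl2, Cxcl3 and Cxcl16).

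Cxcl10 in IP was at 1.897, 1.57 and 1.07 CPM in WT Ctrl and at 0.575, 0.468 and 0.419 CPM in cKO Ctrl. Its IR libraries were at 0.914, 0.796 and 0.547 CPM under the label WT and at 0.777, 0.738 and 0.380 CPM under the label cKO, so that the WT Ctrl libraries stood above the other 9. Relative to Input its log2 ratio was -0.71 (SE 0.21, edgeR adjusted p = 0.00287), -3.17 (SE 0.23, adjusted p = 3.95e-14), -0.50 (SE 0.24, adjusted p = 0.0604) and -2.64 (SE 0.22, adjusted p = 1.64e-12). These ratios were lower in both cKO-labelled groups than in the WT-labelled ones, and in the IR groups they divide IP by Inputs whose Lyz2 levels were opposite (log2 IP over Input of Lyz2 -7.96 under the label WT and 5.48 under the label cKO). With each IR IP group set against the Inputs of the other genotype label instead, an alternative chosen after seeing the data, the Cxcl10 ratio was -2.40 (adjusted p = 1.47e-11) for the IP labelled WT IR and -0.75 (adjusted p = 0.00638) for the IP labelled cKO IR, so that the order of the labels turned. With this pairing all 7 genes were lower in IP in both IR groups, with Cxcl1 at -6.76 and -4.77, Cxcl2 at -3.02 and -2.36, Cxcl3 at -2.20 and -0.78 and Cxcl16 at -3.45 and -2.62 for the IP labelled WT IR and cKO IR (edgeR adjusted p of 1.17e-17 or lower).

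Cxcl14 had log2 ratios of -0.92 (SE 0.14), -1.29 (SE 0.15) and -1.88 (SE 0.14) in WT Ctrl, in cKO Ctrl and under the label WT IR, each past the test, and -0.18 (SE 0.14, edgeR adjusted p = 0.255) under the label cKO IR. With the Inputs of the other genotype label the ratios under the labels WT IR and cKO IR were -1.06 (adjusted p = 8.50e-08) and -0.99 (adjusted p = 5.59e-08) in the same order. With the pairing by label, the latter also passed without cKO IR Input replicate 2 (-0.33, adjusted p = 0.035). Its IP level was 3.24 to 3.87 CPM in WT Ctrl and 3.08 to 3.77 in the group labelled cKO IR, against 1.38 to 1.87 in cKO Ctrl and 1.65 to 2.15 in the group labelled WT IR. Among the Inputs, by contrast, both cKO-labelled groups were low for this gene, so that its IP levels after irradiation followed Lyz2 and not the labels. The IP level of Cxcl16 split the same way, at 105 to 108 CPM in WT Ctrl and 96.4 to 102 in the group labelled cKO IR, against 62.5 to 66.2 and 69.1 to 71.3 in the other two.

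Cxcl9 had 1, 0 and 6 IP counts against 25 Input counts in WT Ctrl, 3 against 46 in cKO Ctrl, 0 against 9 under the label WT IR and 1 against 51 under the label cKO IR. The ratio of Input to IP was 4.02 (exact 95% interval 1.69 to 11.01) in WT Ctrl and 17.1 (5.50 to 86.0) in cKO Ctrl. In the group labelled cKO IR it was 66.7 (11.4 to 2684), and in the group labelled WT IR Input was at least 3.801-fold higher, against a floor of 3 counts over the group. In WT Ctrl the fitted log2 IP over Input was -1.96 (edgeR adjusted p = 0.0552), and without IP replicate 3, which held 6 of the 7 counts, it was -3.91 (adjusted p = 0.0064). Under the exchanged pairing Cxcl9 was called in both IR groups (adjusted p = 2.43e-05 and 0.0293).

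**Figure D4:**
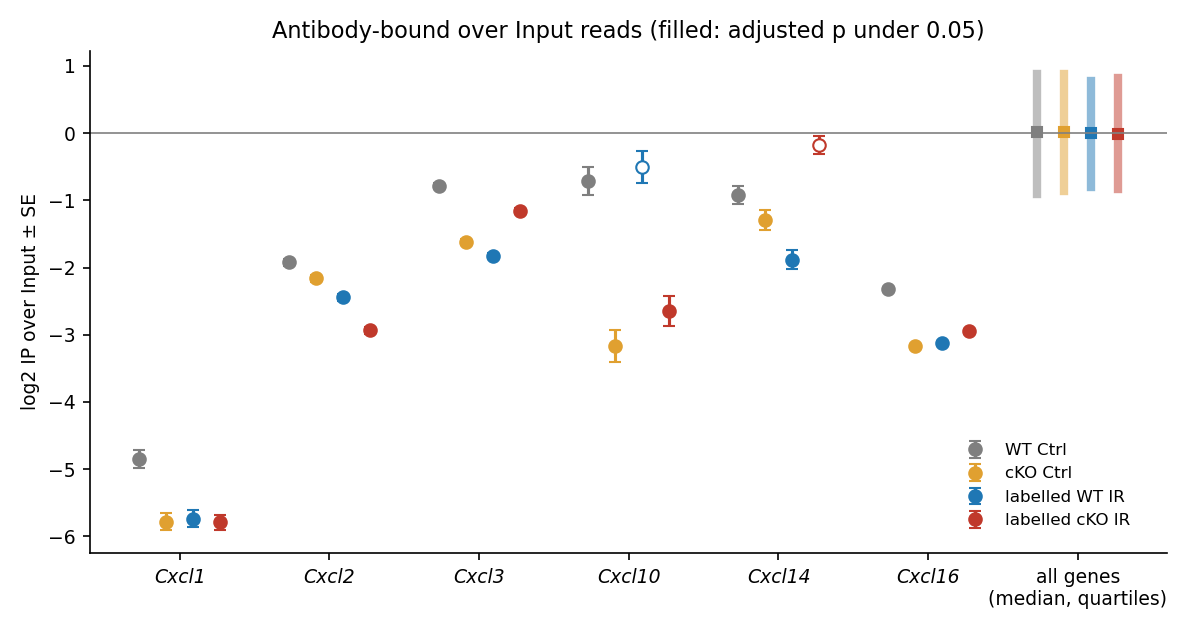
Log2 ratio of IP to Input with its SE (y axis) for 6 CXC ligand genes (x axis) in the 4 groups, filled where the edgeR adjusted p was under 0.05, with the median and quartiles of all 17373 genes tested at the right. Cxcl1 lies near -5 to -6 in each group, and Cxcl9 is left out for its few counts. With IP and Input paired by label, Cxcl10 is lower in both cKO-labelled groups (-3.17 and -2.64) than in the WT-labelled ones (-0.71 and -0.50). For the IR groups this order turned with the Inputs of the other genotype label (-2.40 for the IP labelled WT IR, -0.75 for that labelled cKO IR).

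Between the genotypes without irradiation, where labels and Lyz2 matched, the IP over Input ratio was lower in cKO Ctrl for 5 of the 7 genes. Over all genes tested, 12.5% were lower in this comparison. The difference of the log2 ratio was -2.45 for Cxcl10 (SE 0.31, edgeR adjusted p = 2.08e-07), -0.93 for Cxcl1 (SE 0.23, adjusted p = 0.00285) and -0.86 for Cxcl16 (SE 0.04, adjusted p = 2.52e-16). It was -0.84 for Cxcl3 (SE 0.06, adjusted p = 1.27e-12) and -0.24 for Cxcl2 (SE 0.06, adjusted p = 0.00616). Cxcl14 (-0.36, SE 0.20, adjusted p = 0.211) and Cxcl9 (-1.97, SE 1.41, adjusted p = 0.365) did not pass. With the 12 Ctrl libraries alone the same 5 genes passed, at -2.46, -0.94, -0.86, -0.84 and -0.24. Of the genes that passed in both, Cxcl10 had the largest difference in Input and in this ratio, in opposite directions, and its 3 cKO Ctrl IP libraries were all below the 3 of WT Ctrl. Because Input is the denominator of this ratio, a higher Input lowers it at an unchanged IP level. Cxcl2 had a higher Input in cKO Ctrl (log2 0.21), with mean IP at 30.8 CPM in WT Ctrl and 30.4 in cKO Ctrl. For Cxcl3 the Input difference was not called (log2 0.06), and mean IP was 126 and 74.0 CPM in the same order.

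Averaged over the genotypes, irradiation lowered the IP over Input ratio of Cxcl2 (-0.65, SE 0.05, edgeR adjusted p = 6.87e-14), Cxcl16 (-0.29, SE 0.03, adjusted p = 1.39e-09), Cxcl3 (-0.29, SE 0.04, adjusted p = 7.12e-07) and Cxcl1 (-0.45, SE 0.16, adjusted p = 0.0169). This average does not depend on which genotype label an IR IP library carries. Over all genes tested 23.1% were lower, and for the 1195 genes with transcripts of up to 1200 bases it was 59.7%, with a median of -0.39. Cxcl10 (0.37, SE 0.23, adjusted p = 0.192), Cxcl14 (0.08, SE 0.14, adjusted p = 0.683) and Cxcl9 (-2.27, SE 1.18, adjusted p = 0.117) did not pass. The Cxcl1 value lost its call without replicate 1 of the IP group labelled WT IR (-0.31, adjusted p = 0.0731) or without cKO Ctrl IP replicate 2 (-0.37, adjusted p = 0.075). Input is the denominator of this ratio, and it rose with irradiation in both genotypes for Cxcl1, Cxcl2, Cxcl3 and Cxcl16. Mean IP levels of Cxcl2 were 30.8 CPM in WT Ctrl, 30.4 in cKO Ctrl, 30.2 under the label WT IR and 32.1 under the label cKO IR. The part of the Input rise in the lower ratios was not tested.

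Depletion in IP was shared by most tested genes of each list, except the interferon gamma route under the label WT IR. The shares of all genes tested that were lower were 37.5% in WT Ctrl, 36.0% in cKO Ctrl, and 36.5% and 36.9% under the labels WT IR and cKO IR. Of the other CXC ligands, Cxcl5 had 0 to 12 counts in each IP library against 2052 to 5652 in each Input, and Pf4 had log2 ratios of -1.58 (SE 0.04) in WT Ctrl, -1.71 (SE 0.04) in cKO Ctrl, -1.92 (SE 0.04) under the label WT IR and -2.097 (SE 0.04) under the label cKO IR. Ppbp was at -3.42 (SE 0.11), -4.34 (SE 0.12), -3.21 (SE 0.10) and -2.29 (SE 0.09) in the same order. Cxcr2 was the exception among the receptors, with ratios of -0.58 (SE 0.08), 0.66 (SE 0.08), 1.44 (SE 0.08) and 1.81 (SE 0.09). Of the 12 NF-kB-induced genes, 7, 11, 11 and 9 were lower in IP, most of all Nfkbiz, from -4.52 to -4.95, and Ptgs2, from -3.69 to -4.70, and 11 had a lower ratio in cKO Ctrl than in WT Ctrl. Of the 3′ UTR binding proteins, 6, 6, 5 and 5 of 7 were lower, with Zc3h12a between -2.099 and -2.57, and of the 7 interferon gamma route genes, 5, 5, 3 and 4. All 4 processing enzymes were lower in each group.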

How the data were processed

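Libraries were grouped by their labels alone, and the members and gene lists were chosen with earlier results of these data known. Per the study's methods and the submitters' processing notes, reads were trimmed with Trimmomatic 0.39, aligned to mm10 with HISAT under strand-specific settings and counted with HTSeq (GENCODE vM19). The deposited counts are raw and were made by the authors per library. Reads that matched more than 1 place (3.39 to 3.83% of Input reads) were not counted, which can affect the close paralogs Cxcl1, Cxcl2 and Cxcl3. The authors called peaks with MACS2 per library and strand, and the deposited lists give a fold enrichment (ratio), −log10 p and q values and a score. Which Input served as control is not given in the sources used here. Symbols and positions came from GENCODE vM21 of the same build.

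A gene was tested if 3 or more libraries had 10 or more counts. The test was edgeR's quasi-likelihood test (version 4.0.16, R 4.3.3) with TMM factors and Benjamini-Hochberg adjustment over all genes tested, in 1 fit of the 12 Inputs (16090 genes) and 1 of the 24 libraries (17373 genes). Input CPM used factors over the Inputs and IP CPM factors over all libraries, so IP over Input came from the fit. Consensus peaks were in all 3 replicates on the same strand, overlapping by at least 1 bp. Alternatives were RLE size factors, DESeq2 1.42.0, other count filters, fewer libraries, a replicate block, leaving out each library and, added after seeing the data, IR IP over the Inputs of the other genotype label. The fit was tested on simulated data. Named genes were all members, the other CXC ligands and receptors past the filter, the 2 largest called changes of each other list, and the 3 genes most like each member. The values of 1 gene that this rule selects are not reported here. A planned look at protein sequences was not run. Library pairs of a group differed beyond sampling noise, so none was counted as a duplicate. The WT IR Inputs differed most among themselves. Their chi-square per degree of freedom was 9.72 to 37.6, against 3.53 to 8.34 in the other Input groups. The labels give no batch or date.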

Additional observations from a re-analysis of the deposited data

Results flagged for a closer look

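The irradiation effect on the Input level differed between the genotypes by the interaction term of the edgeR fit for Cxcl1 (0.44), Cxcl2 (0.37), Cxcl3 (0.32), Cxcl10 (1.08) and Cxcl16 (0.20), given as the log2 change in cKO minus that in WT. Among related genes the same term was 0.44 for Cxcl5, 0.41 for Pf4, 0.71 for Cxcr2 and 0.40 for Cxcr4. For Cxcr2 the positive value marks a smaller fall in cKO.

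The log2 IP over Input ratio differed between cKO Ctrl and WT Ctrl for Cxcl1 (-0.93), Cxcl2 (-0.24), Cxcl3 (-0.84), Cxcl10 (-2.45) and Cxcl16 (-0.86). Between irradiated and control groups, averaged over the genotypes, it differed for Cxcl1 (-0.45), Cxcl2 (-0.65), Cxcl3 (-0.29) and Cxcl16 (-0.29). Input, the denominator of this ratio, rose with irradiation in both genotypes for the genes of the latter comparison. In cKO Ctrl it was higher than in WT Ctrl for Cxcl1, Cxcl2, Cxcl10 and Cxcl16.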

How the results depend on the processing

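Over 1863 values of the 7 genes under the alternatives, 1840 kept direction and call, 3 lost the call, 16 gained it and 4 turned in sign. The 4 were uncalled values: Cxcl9 in cKO IR against cKO Ctrl without cKO IR Input replicate 2 (-0.54), Cxcl14 in the same comparison without that library (0.14) or without cKO Ctrl Input replicate 1 (0.07), and the Cxcl14 interaction without cKO IR Input replicate 2 (0.061). Leaving out each library in turn, these values ranged from -0.54 to 0.56, from -0.14 to 0.14 and from -0.22 to 0.061, in the order Cxcl9, Cxcl14 and the interaction. Cxcl9 in cKO IR against WT IR was not tested under the stricter count filter or with the 6 libraries alone. The depletion of Cxcl9 in WT Ctrl passed the test under RLE factors, DESeq2 and with the Ctrl libraries alone (adjusted p from 0.0381 to 0.0488), and that of Cxcl10 in the group labelled WT IR under RLE factors, DESeq2, the stricter filter and the replicate block (0.0295 to 0.0454). With the IR IP libraries over the Inputs of the other genotype label, added after seeing the data, Cxcl10 in the group labelled WT IR (-2.40) and Cxcl14 in the group labelled cKO IR (-0.99) gained the call; no other member changed call. Leaving out 1 library kept 5, 4, 5, 6 to 7 and 5 members called in the 5 Input comparisons. With the 6 libraries compared alone, cKO Ctrl against WT Ctrl called 3870 genes over all instead of 2520; the cause was not tested.

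Replicate numbers did not pair the libraries: same-numbered deviations correlated between -0.04 and 0.02 in the Inputs. With the replicate block, 5, 4, 5, 7 and 5 of the 7 genes were called in the 5 Input comparisons, as without it.

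At 65180075 counts or more per Input, Cxcl9 was the member most limited by counting error.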
